A study of Mus musculus with 9 samples.

Results

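The CDK inhibitors and pocket proteins are the brakes of the cell cycle between growth and DNA replication. The 10 genes taken here were Cdkn1a, Cdkn1b, Cdkn1c, Cdkn2a, Cdkn2b, Cdkn2c, Cdkn2d, Rb1, Rbl1 and Rbl2, found by their gene names among 30157 genes on the array, and 16 of its 39429 probes carry those names. The cells were C2C12, a line of mouse myoblasts that leave the cell cycle and fuse into myotubes when growth serum is lowered, and the series' title speaks of myotubes. Cells were kept for 72 h with vehicle, with 1 nM or with 10 nM of calcitriol (1,25-dihydroxyvitamin D3, the active hormone), and all groups are the same line with no other agent or genotype named. Each group had 3 biological replicates by the series' design text, and RNA of each was labelled with the dye Cy3 and hybridised to an array of its own.

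Cyclin-dependent kinases (CDKs) bound to cyclins drive a cell into DNA replication by phosphorylating the pocket proteins Rb1, Rbl1 (p107) and Rbl2 (p130). Unphosphorylated pocket proteins hold E2F transcription factors and keep replication genes silent. The CIP/KIP inhibitors Cdkn1a (p21), Cdkn1b (p27) and Cdkn1c (p57) bind several cyclin-CDK complexes, and the INK4 inhibitors Cdkn2a (p16, with p19ARF from another reading frame), Cdkn2b (p15), Cdkn2c (p18) and Cdkn2d (p19) bind CDK4 and CDK6. In muscle, p21 and p57 are known for holding differentiating myoblasts out of the cycle, and Rb1 for keeping myotubes from re-entering it. Rbl1 is itself known as an E2F target.

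Of the 8 measured genes, 3 fell at both doses by 2.57-fold or more (Cdkn1c, Cdkn2d and Rbl1). Another 3 passed the test as higher at 1 dose each, by under 1.3-fold (Cdkn1a at 1 nM, Cdkn1b and Rb1 at 10 nM). Each of these 3 rises failed the test under at least 11 of 26 other settings. Between the doses none of the 8 genes passed it. Cdkn2c and Rbl2 passed the test at neither dose, and Cdkn2a and Cdkn2b were not well above background in any whole group. A gene was called where limma's adjusted p over all 21908 genes tested was under 0.05. At 1 nM, 4 of the 8 genes were called, 1 higher and 3 lower, where 23.6% of all genes were called, 11.7% higher and 11.8% lower. At 10 nM, 5 of the 8 were called, 2 higher and 3 lower, where 30.1% of all genes were called, 15.4% higher and 14.7% lower. The median log2 difference over the 8 genes was 0.14 at 1 nM and -0.05 at 10 nM, against -0.09 and -0.11 over all genes. The treated and vehicle arrays did not overlap for 6 of the 8 genes at 1 nM and 5 at 10 nM, where this held for 42.3% and 43.7% of all genes. Both doses were set against the same 3 vehicle arrays.

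Values below are log2 of the processed signal minus the 75th percentile of the array, so that 0 is the signal that 1 in 4 spots exceed, and levels are compared only within a probe. The 75th percentile ran from 2826 to 3389 intensity units, no spot was saturated, and 67.1% to 79.2% of spots were well above background on 8 arrays. The array of vehicle replicate 3 stood apart, with 96.4% of spots well above background, 13.8% of spots marked as non-uniform and a median signal of 660, against 216 to 315 elsewhere. All 7 markers of skeletal muscle looked up (Myod1, Des, Myog, Acta1, Tnnt3, Myh3 and Ckm) were well above background on every array. The same held for all 3 osteoblast markers, 3 of 4 macrophage and leukocyte markers and 4 of 5 fibroblast markers. It held for 1 of 4 adipocyte and 1 of 4 endothelial markers. Detection alone therefore does not set muscle apart from the osteoblast, macrophage and fibroblast lists. The arrays lay on 3 slides, of which slide 1 carried vehicle replicates 1 and 2 beside single arrays of both doses. Slide 2 carried vehicle replicate 3, a pair of 1 nM arrays and an array of 10 nM. Differences given below within a slide therefore rest on a single array in at least 1 group. Within slide 2 the only vehicle array is replicate 3. Because RNA came from whole cultures, fewer cells of a type and less RNA per cell cannot be told apart.

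The promoters of 2 of the 3 genes that fell are shown because Rbl1 carries 1 of the E2F letter sets searched, listed below, and Cdkn2d carries none of them. Other letters that E2F factors may bind were not searched. The bases are the 250 before the RefSeq start (build GRCm38.p6, minus strand, read 5′ to 3′ towards the gene), at chr2:157204535-157204784 for Rbl1 and chr9:21291210-21291459 for Cdkn2d, with the E2F letters in capitals.
Rbl1: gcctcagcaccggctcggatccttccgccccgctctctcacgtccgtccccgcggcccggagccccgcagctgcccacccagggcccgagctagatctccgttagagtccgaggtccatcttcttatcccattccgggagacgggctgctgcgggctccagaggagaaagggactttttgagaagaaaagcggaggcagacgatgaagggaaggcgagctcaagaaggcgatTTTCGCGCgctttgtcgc
Cdkn2d: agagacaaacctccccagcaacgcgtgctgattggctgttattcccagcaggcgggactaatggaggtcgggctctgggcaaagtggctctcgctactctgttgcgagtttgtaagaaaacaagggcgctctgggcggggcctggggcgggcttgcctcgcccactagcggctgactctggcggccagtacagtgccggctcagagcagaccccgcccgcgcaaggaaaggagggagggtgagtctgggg
The letters searched for E2F were TTTCCCGC, TTTGGCGC, TTTGCCGC and TTTCGCGC on both strands of windows that also take in the 50 bases after the start. The Rbl1 window held TTTCGCGC, its first base 18 bases before the start, and 2.26% of 32851 windows hold 1 of these letter sets. The Cdkn2d window held none of them, and 5 matches to the GC box GGGCGG, a letter set in 35.7% of windows. The Rbl1 window held 1 GC box, and each of the other genes with a promoter window had at least 1. Of the 10 genes, 8 had 11 windows in the table, with none for Cdkn1c or Rb1, and the only other E2F match among them lay in the upstream window of Cdkn2a. No window of these genes held a direct repeat of hexamers spaced by 3 bases of the kind the vitamin D receptor binds (DR3), found in 0.0396% of all windows. A match describes these letters and not a bound site.

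Among the CIP/KIP inhibitors, Cdkn1c fell most. Cdkn1c encodes p57, an imprinted inhibitor that in mice is expressed from the maternal chromosome. Its probe, at chr7:150644753-150644812 (mm9, the build in the files, minus strand), read 1.83, 1.74 and 1.43 on the vehicle arrays, -0.51, -0.73 and -0.99 on the 1 nM arrays, and -0.94, -1.04 and -1.21 on the 10 nM arrays. In intensity units the 1 nM arrays lay between 1502 and 2384 and the 10 nM arrays between 1254 and 1470, against 8588 to 11873 on the vehicle arrays. Every treated array lay below every vehicle array, while the groups of the 2 doses overlapped. Cdkn1c was 5.30-fold lower at 1 nM than in vehicle (log2 -2.41, SE 0.16, adjusted p = 2.73e-05). It was 6.63-fold lower at 10 nM than in vehicle (log2 -2.73, SE 0.16, adjusted p = 9.04e-06). Within slide 1 the log2 differences were -2.29 at 1 nM and -2.73 at 10 nM, and within slide 2 they were -2.29 and -2.47.

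Cdkn1a encodes p21, a target of p53 and of MyoD that the vitamin D receptor is known to induce in human myeloid cells. Its main probe, printed as 10 spots, read 5.01, 5.11 and 4.92 on the vehicle arrays, 5.22, 5.34 and 5.42 on the 1 nM arrays, and 5.18, 5.05 and 5.03 on the 10 nM arrays. The 1 nM arrays lay above all vehicle arrays, and the 10 nM arrays overlapped with vehicle. Cdkn1a was 1.24-fold higher at 1 nM than in vehicle (log2 0.31, SE 0.09, adjusted p = 0.0343), and at 10 nM it differed by 0.07 (95% interval -0.13 to 0.27, adjusted p = 0.551). The 1 nM call was lost under 15 of 26 other settings, among them leaving out vehicle replicate 1 or 3, 1 nM replicate 2 or 3, or 10 nM replicate 2 or 3 (log2 0.27 to 0.31, adjusted p = 0.0522 to 0.129). With the slide as a block the difference was 0.32 (adjusted p = 0.0678), and it was 0.16 within slide 1 and 0.46 within slide 2.

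Cdkn1a had a pair of further probes, neither called at either dose. The probe at chr17:29235299-29235358 (mm9, plus strand) differed from vehicle by 0.03 at 1 nM and 0.16 at 10 nM. The probe at chr17:29227986-29228045, annotated to another transcript of the gene, differed by -0.23 and -0.54 (adjusted p = 0.573 and 0.172), and read -1.16 on vehicle replicate 3 against -2.27 and -2.16 on the other vehicle arrays. The mean of all 3 probes was 0.04 at 1 nM (adjusted p = 0.857) and -0.10 at 10 nM, so the call rests on the main probe.

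Cdkn1b encodes p27, whose protein accumulates in resting cells. Its main probe read 1.69, 1.82 and 1.53 on the vehicle arrays, 1.82, 2.00 and 1.98 on the 1 nM arrays, and 2.04, 2.11 and 1.97 on the 10 nM arrays. The 10 nM arrays lay above all vehicle arrays, and the lowest 1 nM array lay level with the highest vehicle array to 2 decimals. Cdkn1b was 1.28-fold higher at 10 nM than in vehicle (log2 0.36, SE 0.09, adjusted p = 0.0240), and at 1 nM it differed by 0.26 (adjusted p = 0.0973). The 10 nM call was lost under 14 of 26 other settings, among them the authors' deposited values (log2 0.25, adjusted p = 0.114) and leaving out vehicle replicate 1, 10 nM replicate 1 or 10 nM replicate 2 (adjusted p = 0.0586, 0.0580 and 0.0847). Without vehicle replicate 2 it was also called at 1 nM (adjusted p = 0.0482). With the slide as a block the 10 nM difference was 0.40 (adjusted p = 0.0589), and it was 0.29 within slide 1 and 0.58 within slide 2. A second, dimmer probe gave -0.51 at 1 nM and -0.10 at 10 nM, neither called (adjusted p = 0.240 and 0.811). That probe read -3.27 on vehicle replicate 3 against -3.99 and -4.14 on the other vehicle arrays. On 10 nM replicate 1 it read -3.40, against -4.10 and -4.18 on the other arrays of that dose.

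**Figure D1:**
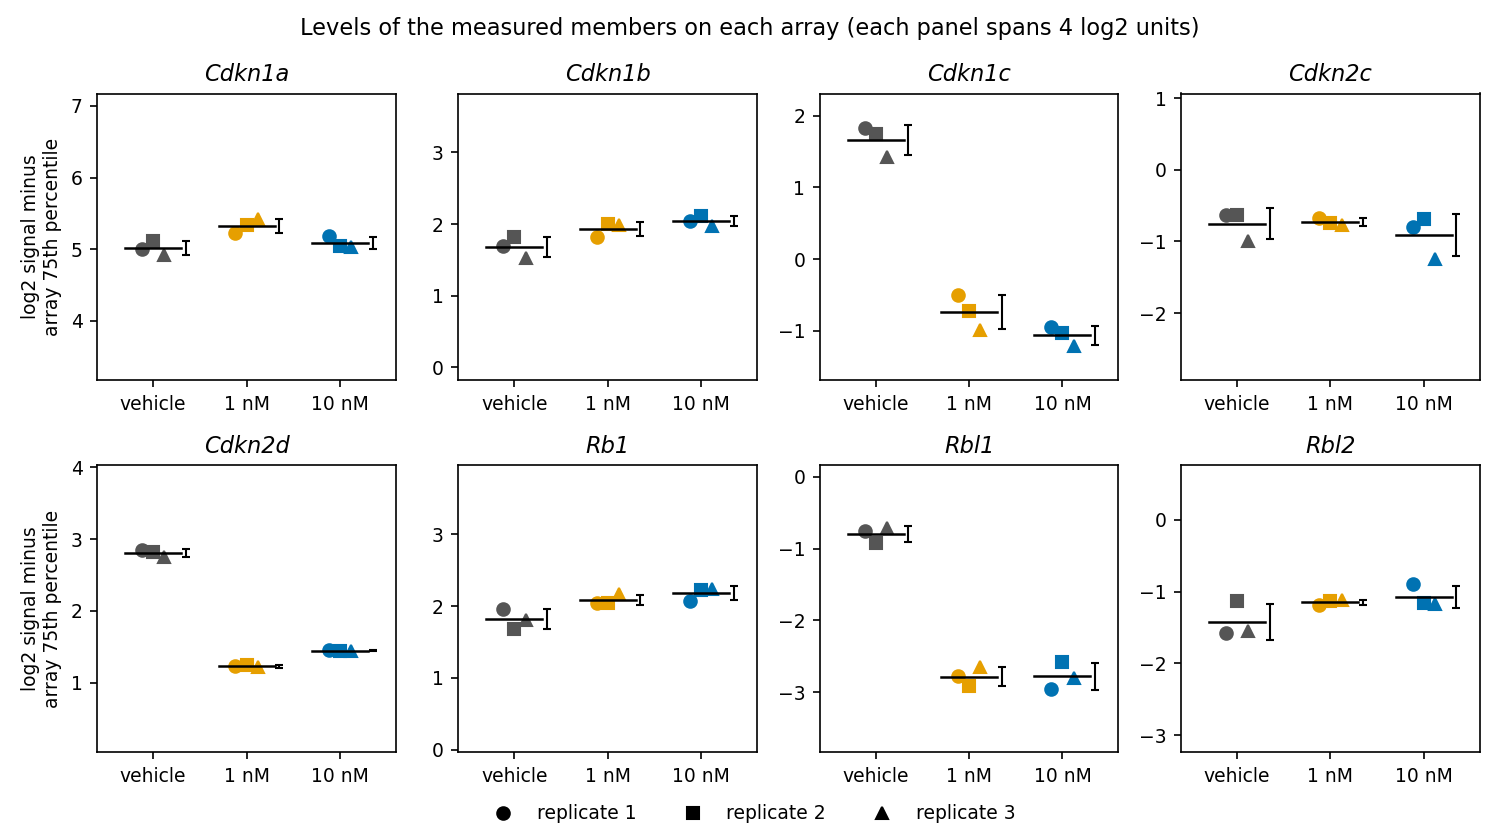
Levels of the 8 measured genes on the 9 arrays, as log2 signal minus the array's 75th percentile, for vehicle, 1 nM and 10 nM calcitriol. Points are arrays shaped by replicate number, horizontal lines group means and bars 1 SD (n = 3), and every panel spans the same log2 range. Cdkn1c, Cdkn2d and Rbl1 drop clear of vehicle at both doses while the dose means of the other 5 stay within 0.4 of their vehicle means.

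Among the INK4 inhibitors, Cdkn2d fell at both doses, with the smallest standard error of the 8 genes. Cdkn2d encodes p19INK4d. Its probe, at chr9:21092934-21092993 (mm9, minus strand), read 2.85, 2.82 and 2.75 on the vehicle arrays, 1.22, 1.24 and 1.21 on the 1 nM arrays, and 1.46, 1.44 and 1.44 on the 10 nM arrays. No 2 of the 3 groups overlapped, and the order of the levels was vehicle, then 10 nM, then 1 nM. Cdkn2d was 2.99-fold lower at 1 nM than in vehicle (log2 -1.58, SE 0.06, adjusted p = 1.28e-06). It was 2.57-fold lower at 10 nM than in vehicle (log2 -1.36, SE 0.06, adjusted p = 1.78e-06). Within slide 1 the differences were -1.61 and -1.38, and within slide 2 they were -1.52 and -1.31. Scaling each array to its median in place of its 75th percentile moved the median of all genes to 0.38 at 1 nM and 0.40 at 10 nM and ended both Cdkn2d calls (log2 -1.09 and -0.83, adjusted p = 0.0711 and 0.120). With vehicle replicate 3 left out as well, both calls held (log2 -1.51 and -1.25).

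Cdkn2c, which encodes p18, did not pass the test at either dose. It read -0.63, -0.63 and -1.00 on the vehicle arrays, -0.67, -0.74 and -0.78 on the 1 nM arrays, and -0.80, -0.69 and -1.24 on the 10 nM arrays. The difference from vehicle was 0.02 at 1 nM (95% interval -0.36 to 0.40) and -0.16 at 10 nM (-0.54 to 0.22), and its sign turned under several other settings.

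Cdkn2a and Cdkn2b, neighbours on chromosome 4, were read by 2 probes each. No Cdkn2a or Cdkn2b probe was well above background on any treated array. Cdkn2a was well above background on 1 of 3 vehicle arrays with 1 probe, where vehicle replicate 3 gave 501 intensity units against 5.89 and 9.82 on the other vehicle arrays, and on none with its other probe. Cdkn2b was well above background on vehicle replicate 1 with 1 probe, at 30.9 intensity units, and both of its spots on vehicle replicate 3 were marked as non-uniform and gave no value. No fold is therefore given for either gene.

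Of the pocket proteins, Rbl1 fell at both doses. Rbl1 encodes p107, the pocket protein of cycling cells. Its main probe, at chr2:156972143-156972202 (mm9, minus strand), read -0.75, -0.92 and -0.71 on the vehicle arrays, -2.78, -2.92 and -2.66 on the 1 nM arrays, and -2.96, -2.58 and -2.80 on the 10 nM arrays. Both doses lay well below vehicle and overlapped with each other. Rbl1 was 3.98-fold lower at 1 nM than in vehicle (log2 -1.99, SE 0.12, adjusted p = 1.92e-05). It was 3.97-fold lower at 10 nM than in vehicle (log2 -1.99, SE 0.12, adjusted p = 1.23e-05). Within slide 1 the differences were -1.95 and -2.13, and within slide 2 they were -2.08 and -1.87. A second Rbl1 probe, at chr2:157000761-157000820 and annotated to another transcript, also fell, by 2.23 at 1 nM and by 2.24 at 10 nM on the log2 scale (adjusted p = 0.0115 and 0.00859), although it read -2.06 on vehicle replicate 3 against -3.92 and -3.80 on the other vehicle arrays.

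Rb1 encodes the retinoblastoma protein. Its probe, printed as 10 spots, read 1.96, 1.69 and 1.81 on the vehicle arrays, 2.05, 2.05 and 2.16 on the 1 nM arrays, and 2.07, 2.23 and 2.24 on the 10 nM arrays. Both doses lay above all vehicle arrays, by a margin smaller than the spread within vehicle. Rb1 was 1.28-fold higher at 10 nM than in vehicle (log2 0.36, SE 0.09, adjusted p = 0.0211), and at 1 nM it differed by 0.27 (adjusted p = 0.0784). The 10 nM call was lost under 11 of 26 other settings, among them leaving out vehicle replicate 2, 10 nM replicate 2 or 10 nM replicate 3 (adjusted p = 0.0506, 0.0741 and 0.0756). Without vehicle replicate 1 it was also called at 1 nM (adjusted p = 0.0457). With the slide as a block the 10 nM difference was 0.32 (adjusted p = 0.0892), and it was 0.25 within slide 1 and 0.42 within slide 2.

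Rbl2 encodes p130, the pocket protein that predominates in resting cells. It read -1.58, -1.13 and -1.54 on the vehicle arrays, -1.19, -1.13 and -1.12 on the 1 nM arrays, and -0.89, -1.16 and -1.17 on the 10 nM arrays. Vehicle replicate 2 lay among the treated arrays. The differences from vehicle of 0.27 at 1 nM (95% interval -0.05 to 0.59) and 0.34 at 10 nM (0.03 to 0.66) were not called (adjusted p = 0.207 and 0.100). Without vehicle replicate 2 it was called higher at both doses (log2 0.42 and 0.49, adjusted p = 0.0269 and 0.0119).

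**Figure D2:**
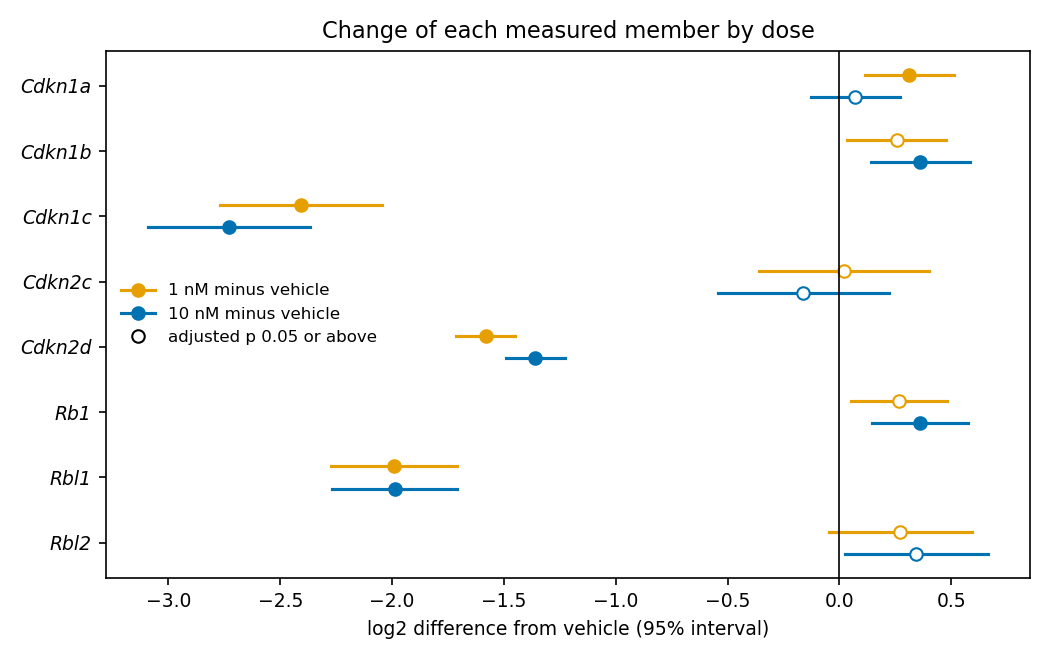
Log2 difference from vehicle of each measured gene at 1 nM and 10 nM, with 95% intervals from the fit of all 9 arrays; filled points had an adjusted p under 0.05. Intervals for Cdkn1c, Cdkn2d and Rbl1 lie wholly below -1.2 at both doses, and no other interval extends below -0.55.

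**Figure D3:**
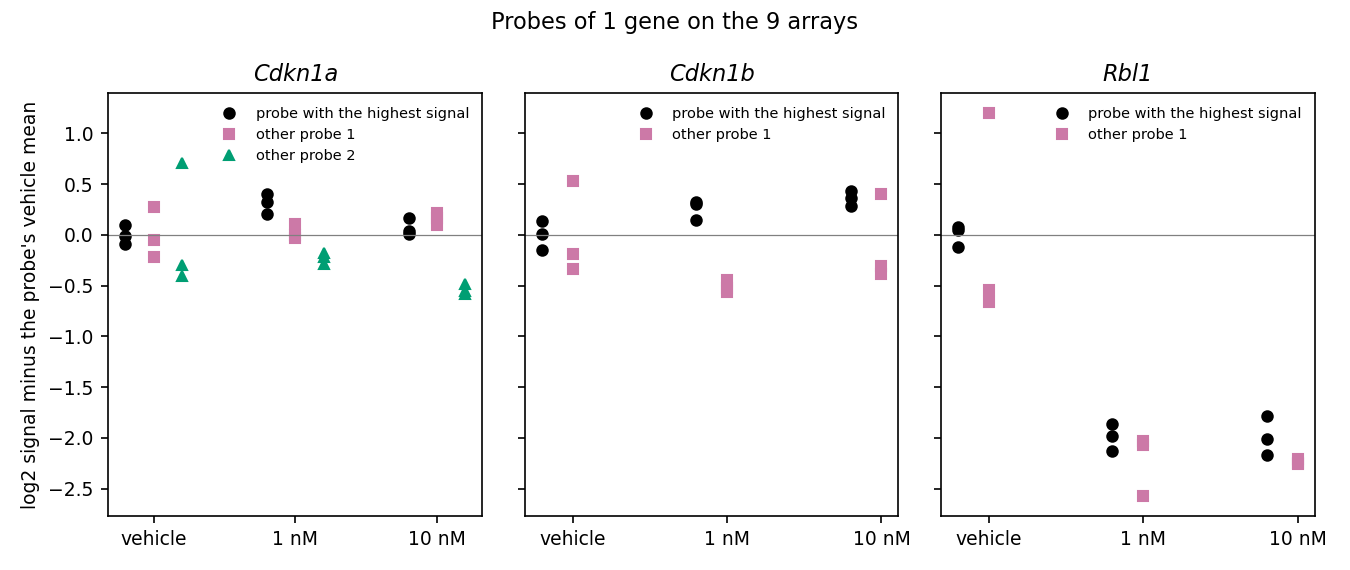
Probes of Cdkn1a, Cdkn1b and Rbl1 on each array, as log2 signal minus that probe's own vehicle mean; points are single arrays (n = 3 per group and probe). Both Rbl1 probes drop at both doses, while the probes of Cdkn1a and of Cdkn1b differ in sign.

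Between the doses none of the 8 genes was called, where 3.81% of all genes were (834 genes, or 454 with the replicate number as a block), 1.59% higher and 2.21% lower at 10 nM. At an unadjusted p under 0.05 there were 2 of the 8, Cdkn2d and Cdkn1a, where 12.2% of all genes were. Cdkn2d was higher at 10 nM than at 1 nM by 0.22 (95% interval 0.09 to 0.35, adjusted p = 0.0980), and Cdkn1a was lower by a log2 difference of -0.24 (-0.44 to -0.04, adjusted p = 0.263). In both genes the groups of the 2 doses did not overlap, which held for 24.0% of all genes. With array weights both passed the threshold, and Cdkn2d also passed with a robust fit of the spread. The interval for Cdkn1c was -0.68 to 0.04 and that for Rbl1 was -0.28 to 0.28.

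The genes whose values over the 9 arrays, each centred on its own mean, were closest to those of a called gene were looked up among 14782 genes. For Cdkn1c these were Haspin, Atad2 and Dnaaf3 (root mean square difference 0.15 to 0.18 log2 units, where the median gene was 1.24 away). For Rbl1 they were Mnd1, Srd5a1 and H2aj (0.11 to 0.13, median gene 0.96). For Cdkn2d they were Ankrd37, H4c14 and Smc4 (0.07 to 0.10, median gene 0.74), and Ankrd37 differed from vehicle by -1.55 at 1 nM and -1.40 at 10 nM. For the small rises the nearest were Otud7a, Clip4 and Frmpd1 for Cdkn1a, Psmd7, Mta2 and Kif3a for Cdkn1b, and Gpbp1, Cdc34 and Cep19 for Rb1.

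Of 11 measured cyclins and CDKs that these inhibitors hold, 7 fell, 0 rose and 4 were not called at each dose, and the list median was -2.21 at 1 nM and -2.20 at 10 nM. Ccnd1, cyclin D1, the partner of CDK4 and CDK6, averaged 0.68 ± 0.11 in vehicle, -3.92 ± 0.15 at 1 nM and -4.41 ± 0.17 at 10 nM (SD, n = 3 each), which is 24.2-fold and 34.0-fold lower than vehicle (adjusted p = 3.07e-07 and 1.07e-07). Ccna2, the cyclin of DNA replication, was 16.7-fold lower at 1 nM and 26.1-fold lower at 10 nM than in vehicle. The mitotic cyclins Ccnb1 and Ccnb2 were 29.5-fold and 23.6-fold lower at 10 nM than in vehicle. The list medians were -2.02 and -2.13 within slide 1, and -2.46 and -2.39 within slide 2. Over all genes 11.7% were higher and 11.8% lower at 1 nM, and 15.4% and 14.7% at 10 nM. With each array scaled to its median, 944 of 21908 genes rose and 573 fell at 1 nM, and 1699 and 835 at 10 nM. The counts of every list below are to be read beside these.

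Of 17 genes for E2F and DP factors and for the MuvB complex and its partners, 7 fell at each dose. The list median was -0.22 at 1 nM and -0.14 at 10 nM. E2F factors were taken whether or not pocket proteins hold them. E2f7, an E2F that represses, was 19.8-fold lower at 1 nM and 47.6-fold lower at 10 nM than in vehicle (log2 -4.31 and -5.57), and E2f8 was 2.20-fold and 3.62-fold lower. E2f1, an activating E2F, was 2.57-fold and 2.45-fold lower, and Foxm1, which drives mitotic genes with MuvB, 7.38-fold and 8.96-fold lower. E2f6, named after its value was seen, rose by 0.29 at 10 nM, a call lost with the slide as a block, with median scaling and within either slide. With each array scaled to its median, 3 fell at 1 nM and 5 at 10 nM, and the list median was 0.27 and 0.39, with all genes at 0.38 and 0.40.

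Of 20 genes that E2F is known to switch on, 16 fell at 1 nM and 15 at 10 nM, and 4 were not called at each dose, with list medians of -1.31 and -1.45. Mki67, a marker of cycling cells, averaged 3.15 ± 0.08 in vehicle, -1.33 ± 0.15 at 1 nM and -2.32 ± 0.06 at 10 nM (SD, n = 3 each). The helicase subunit Mcm5 was 8.67-fold lower at 1 nM and 12.3-fold lower at 10 nM than in vehicle, and the thymidine kinase Tk1 21.7-fold and 34.9-fold. Cdt1, named after its value was seen, rose by 0.23 at 10 nM, a call lost with the replicate or the slide as a block, with median scaling, within either slide and without vehicle replicate 3. With each array scaled to its median 7 fell at 1 nM and 9 at 10 nM, where 573 and 835 of 21908 genes did. Within slide 1 the list medians were -1.18 and -1.37, and within slide 2 they were -1.57 and -1.65.

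Most markers of cycling myoblasts fell at both doses, as did Cdkn1c, Cdkn2d and Rbl1. From 1 nM to 10 nM, Cdkn1c differed by -0.32, Cdkn2d by 0.22 and Rbl1 by 0.004 (log2), none of them called. Between the same doses 2 of the 4 markers were called lower. Of 4 markers, Mki67, Top2a and Pax7 fell at both doses and Myf5 was not called, being well above background on all vehicle arrays and on 1 array of each dose. Mki67 is also in the E2F target list. Their summed level, as a multiple of the array's 75th percentile, ran from 10.8 to 12.3 in vehicle, from 1.00 to 1.21 at 1 nM and from 0.701 to 0.805 at 10 nM. That of the 7 skeletal muscle markers ran from 233 to 265 in vehicle, from 285 to 297 at 1 nM and from 295 to 301 at 10 nM, with Myod1, Tnnt3 and Ckm called higher at 1 nM, and these and Des higher and Myog lower at 10 nM. The 4 adipocyte markers summed to 0.0779 to 0.363 in vehicle, 0.222 to 0.258 at 1 nM and 2.08 to 2.22 at 10 nM. Adipoq, well above background on 1 of 3 vehicle arrays, was the only one of them called (log2 7.67 at 10 nM), and Cidec, Lep and Plin1 differed at 10 nM by -0.44, -1.26 and -1.45. Of 4 measured fibroblast markers, Dcn (log2 1.45 and 1.16 at the 2 doses) and Pdgfra (0.47 and 0.49) rose at both doses, Lum (0.70) rose at 1 nM, and Col1a1 fell at both (-1.35 and -1.13). The fibroblast markers summed to 58.1 to 69.6 in vehicle, 54.0 to 59.4 at 1 nM and 50.3 to 58.9 at 10 nM. Of 3 measured endothelial markers Tek, well above background on 1 of 3 vehicle arrays and on every treated array, was called higher (log2 2.73 and 2.78), and Kdr and Pecam1 were not called. The part of these cell states in the changes of the CDK inhibitors and pocket proteins was not tested.

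Genes that degrade CIP/KIP proteins went both ways, with 3 higher and 3 lower of 11 at each dose. Skp2, which recognises p27 for degradation, was 2.04-fold lower at 1 nM and 2.30-fold lower at 10 nM than in vehicle, and its cofactor Cks1b was 4.09-fold and 5.02-fold lower. Dtl, which targets p21 in S phase, was 4.23-fold and 6.38-fold lower. Skp1, the adaptor shared by many such ligases, was 1.37-fold and 1.58-fold higher (adjusted p = 0.00599 and 0.000716). Rnf123 and Cul4a, named after their values were seen, were the others that rose. With each array scaled to its median, 1 rose and 2 fell at 1 nM, and 2 rose and 2 fell at 10 nM. Within slide 1 the list medians were 0.10 and 0.07, against 0.005 and 0.09 over all genes.

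Cdkn1a is a p53 target in cells under stress. Of 20 genes, other p53 targets and the p53 gene Trp53 itself, 8 rose and 3 fell at 1 nM, and 7 rose and 4 fell at 10 nM. Sesn1 was 2.89-fold higher at 1 nM and 3.58-fold higher at 10 nM than in vehicle, Gadd45a 2.25-fold and 2.51-fold, and Trp53inp1 1.65-fold and 1.78-fold. The death receptor gene Fas was 1.60-fold lower at 10 nM than in vehicle (adjusted p = 0.000313), with a difference of -0.06 at 1 nM that was not called. The other genes that fell, named after their values were seen, were Pmaip1, Sesn2 and Tnfrsf10b, at both doses. With each array scaled to its median, 4 rose and 0 fell at 1 nM, and 7 rose and 0 fell at 10 nM. Within slide 1 the list medians were 0.09 and 0.17, against 0.005 and 0.09 over all genes.

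Of 11 Polycomb and CBX regulators of the INK4 locus, 1 rose and 1 fell at 1 nM and 1 fell at 10 nM. Ezh2, the methyltransferase of histone H3 at the locus, was 1.64-fold lower at 1 nM and 1.75-fold lower at 10 nM than in vehicle, a call lost with each array scaled to its median and within slide 1. Cbx2, named after its value was seen, rose by 0.31 at 1 nM, a call lost with the replicate block, with median scaling, within slide 1 and without vehicle replicate 3. Of 4 neighbours of the locus 3 were measured, and limma called 0 at either dose (0 at an unadjusted p under 0.05 too). The 10 nM differences were 0.12 for Klhl9 and -0.43 for Ifna1, which belongs to a family of near-identical interferon genes.

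Among 17 measured imprinted genes of the Cdkn1c domain and of the network it is co-expressed with, 1 rose and 4 fell at 1 nM, and 3 rose and 5 fell at 10 nM. Mest averaged 3.45 ± 0.05 in vehicle, -0.15 ± 0.13 at 1 nM and -2.06 ± 0.14 at 10 nM (SD, n = 3 each), which is 12.1-fold and 45.6-fold lower than vehicle. Osbpl5, which lies in the same imprinted cluster as Cdkn1c, was 1.49-fold and 2.33-fold higher. Igf2r was 1.35-fold and 1.60-fold lower, and Sgce 1.27-fold and 1.54-fold. The other called genes, named after their values were seen, were Ndn, lower at both doses, and at 10 nM Cd81, lower, with H19 and Peg3, higher. With each array scaled to its median, 0 rose and 1 fell at 1 nM, and 2 rose and 1 fell at 10 nM.

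Of 20 measured regulators known to act on transcription of CDK inhibitors, 4 rose and 4 fell at 1 nM, and 5 rose and 7 fell at 10 nM. Id3 and Id2 encode inhibitors of helix-loop-helix factors such as MyoD and moved in opposite directions. Id3 was 4.43-fold higher at 1 nM and 4.59-fold higher at 10 nM than in vehicle, and Id2 was 1.77-fold and 3.19-fold lower. Klf6, an inducer of Cdkn1a, was 1.82-fold and 2.32-fold lower, and Foxo1, which is known to induce Cdkn1b, 1.44-fold and 1.88-fold lower. The others called higher, named after their values were seen, were Myod1 and Myf6 at both doses, Mef2c at 1 nM, and Foxo3 and Smad3 at 10 nM, and the others called lower were Egr1 at both doses and Klf4, Myog and Myc at 10 nM. With each array scaled to its median, 2 rose and 0 fell at 1 nM, and 4 rose and 0 fell at 10 nM.

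**Figure D4:**
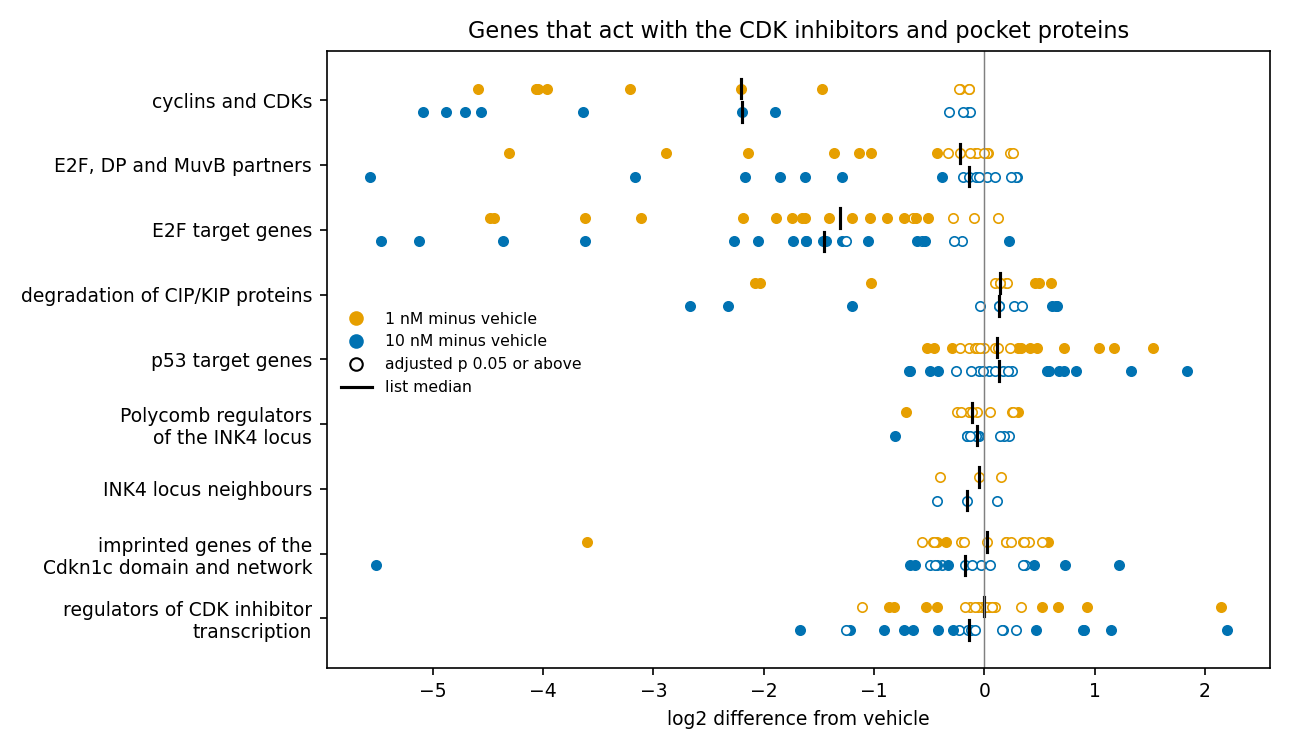
Log2 difference from vehicle of every measured gene in 9 lists around the CDK inhibitors and pocket proteins, at 1 nM and 10 nM; filled points had an adjusted p under 0.05 and vertical bars are list medians. Cyclins and CDKs and E2F targets lie mostly left of 0 at both doses, and the other 7 lists have medians between -0.22 and 0.14.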

How the data were processed

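Total RNA of 9 C2C12 cultures was measured on 1-colour arrays of 44397 spots. The authors' deposited scanner files hold linear intensity values and other columns of 0 or 1 that mark control spots, non-uniform spots and signals above background, as the file headers show. They come from Agilent Feature Extraction 11.5.1.1, and limma is also named, per the submitters' processing notes. The authors' deposited log2 values served as an alternative. Log2 of the processed signal minus the 75th percentile of its array was used, without control spots and spots marked non-uniform, and replicate spots were averaged. Probes entered the fit (28342 of them) when every array of some group showed them well above background, and a gene was its kept probe with the highest mean. Vehicle replicate 3 gave no value for 1567 of the genes tested.

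Groups were compared in 1 unblocked limma fit (version 3.58.1, R 4.3.3), with Benjamini-Hochberg adjustment over all genes. Named genes were all 10 genes with every probe, up to 4 called genes per list with the smallest p at 10 nM, and the 3 nearest in pattern to each called gene. A gene that this rule took is not reported here. The genes and lists were chosen with earlier results of these data known. The number of arrays limits the precision, and no depth applies to arrays. The procedure was tested on simulated data with independent noise of equal spread on all arrays. That test held no slide effect and no unusual array, so it does not bear on either. Deviations from group means of 1 nM and 10 nM arrays of the same replicate number correlated at 0.483, 0.330 and 0.139 across genes. Treating these numbers as pairs rested on those values rather than on sample names, and vehicle numbers were left unpaired (-0.420 to 0.0562). The 1 nM and 10 nM arrays shared slide 1 for replicate 1 and slide 2 for replicate 2. Those of replicate 3 lay on slides 2 and 3. Whether the correlations come from pairing or from shared slides was not tested. The main fit did not use the pairs, which entered only the alternative with a replicate block. Slide and scan divided the arrays alike. Alternatives covered background, scaling, filter, probe choice, fit, blocks, slides and each array left out. Promoters and names came from RefSeq (GRCm38.p6), and probe positions are those of the files (mm9). Exons were not analysed here.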

Additional observations from a re-analysis of the deposited data

How the results depend on the processing

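Under all 26 alternatives the calls of Cdkn1c and Rbl1 held at both doses, and that of Cdkn2d held under all but median scaling. Scaling to the array median with vehicle replicate 3 left out, and the list counts by setting, were added after seeing the data. The number of genes called at 1 nM was 5161, and 2984 with quantile normalization, 1517 with median scaling, 11360 with array weights, 1583 within slide 1, 10516 within slide 2 and 3080 at an adjusted p of 0.01. At 10 nM it was 6594, and 4106, 2534, 10333, 2570, 10079 and 4316 in the same order. Between the doses it was 834, and 160, 58, 1884, 5, 0 and 364 in that order (each slide held 1 group of 2 arrays, and its lone arrays are assumed to vary alike). It was also 426 with the authors' deposited values, 523 without a filter, 1346 with only the groups compared, 342 with the slide as a block and 454 with the replicate block, and it ran from 362 to 1262 when each array was left out, the highest without vehicle replicate 3. Of genes called, 49.9% at 1 nM and 51.2% at 10 nM were higher, and 64.8% and 65.4% with quantile normalization and 62.2% and 67.0% with median scaling.

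The sign turned for uncalled differences only. The mean of all probes gave -0.10 for Cdkn1a at 10 nM, -0.13 for Cdkn1b at 1 nM and -0.0030 for Rbl1 between the doses. Cdkn2c at 1 nM was -0.081 with normexp and percentile scaling, -0.11 with array weights, -0.043 within slide 1 and -0.0023 with median scaling without vehicle replicate 3, and ran from -0.10 to 0.083 when each array was left out, the lowest without vehicle replicate 3. Cdkn2c at 10 nM was 0.14 with quantile normalization, 0.37 with median scaling, 0.028 with the slide block and 0.31 within slide 2, and ran from -0.28 to 0.0047 when each array was left out, the highest without 10 nM replicate 3. Between the doses Cdkn2c was 0.067 and Rbl2 -0.038 within slide 2, and Rbl1 was -0.18 within slide 1. When each array was left out, Rbl1 ran from -0.10 to 0.093 and Rbl2 from -0.019 to 0.12. The replicate block ended the Cdkn1a call at 1 nM (adjusted p = 0.0764) and no other call of these genes, while the slide block ended that call and those of Cdkn1b and Rb1 at 10 nM (adjusted p = 0.0678, 0.0589 and 0.0892). Causes of these shifts were not tested. Where a signal is near background, as for Cdkn2a and Cdkn2b, no change could be measured.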
